A study of Mus musculus with 11 samples.

Results

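Microglia that had been cultured and then treated with TGF-β1, IL-34 and CX3CL1 (NB_Stim, 3 arrays) were compared with microglia sorted directly from the newborn brain (NB_FACS, 3 arrays). The 6 arrays were chosen by their sample titles, and they were 6 of the 11 arrays of the series. All mice were C57BL/6N. NB_FACS cells came from pups of both sexes at postnatal day 1 to 3, whose brains were digested with trypsin in serum-containing medium, with no transcription inhibitor named in the methods, and then sorted for intermediate CD45 and high CX3CR1. NB_Stim cells came from pups of the same age. They had first grown in flasks seeded with 2 to 3 brains each. Conditioned medium of L-929 cells, a source of M-CSF, was added to the flasks at 20% on set days from day 8 to day 29. The flasks were harvested repeatedly, also before day 29, so cells of an early harvest had not received every addition. The labels do not give the harvest of an array. NB_Stim cells were shaken off over 5.5 h and kept for 1 day in serum medium with the human cytokines, each at 100 ng/mL. NB_Control (3 arrays) was the same culture without the cytokines, and A_FACS (2 arrays) was sorted from adult females, and both are given as levels only. The cytokines were added to NB_Stim alone, whereas flask culture, M-CSF medium, shaking, replating and time outside the brain separated NB_Stim from NB_FACS together with them, so that these causes cannot be told apart. Nothing in the labels ties arrays to separate animals or cultures, and p-values therefore measure only the spread between these samples.

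Microglia are the macrophages of the brain parenchyma. They depend on ligands of the CSF1 receptor, among them IL-34 from neurons, and on TGF-β, which maintains a set of genes that distinguishes them from other macrophages. CX3CL1 is a neuronal chemokine read by the receptor CX3CR1, and P2Y receptors let microglia sense nucleotides released around them. In the newborn brain microglia are still dividing, and several of their mature genes are not yet at adult levels.

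Values are quantile normalised log2 intensities, and a difference is NB_Stim minus NB_FACS on this log2 scale. Each is given with the standard error (SE) of the fit and a Benjamini-Hochberg adjusted p from limma's moderated two-sided test. Genes with an adjusted p below 0.05 were called. On each array 66.8% to 80.5% of the probes were well above background, and the number of arrays limits the precision. Slide 2 held replicate 3 of the newborn groups, and slide 1 all other arrays. Arrays 1 and 2 of NB_Stim were the most alike (r = 0.9939), against 0.9653 to 0.9676 with array 3, and the corresponding r in NB_FACS was 0.9894, with 0.9666 and 0.9773 for array 3. The microglial markers Cx3cr1, Fcrls, Tmem119, Olfml3 and P2ry12 were above background on all 6 arrays. Of the same markers P2ry12 and Siglech were far lower in NB_Stim (differences -5.41 and -5.18, the latter as small as -1.62 under other processing), and Csf1r (-0.52) and Itgam (0.39) were not called. Aif1 was not analysed here.

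Stimulated cells differed from sorted newborn cells in 6086 of 19565 genes (31.1%), of which 3122 (16%) were higher and 2964 (15.1%) lower. At least a 2-fold difference was reached by 1539 of the higher and 1678 of the lower genes, and a log2 difference of at least 5 by 45 and 42. The median absolute log2 difference was 0.39 over all genes and 1.05 over the called genes. For 10801 genes (55.2%) the 95% interval of the difference lay between -1 and 1, so that a 2-fold difference was outside it. Above background on all NB_Stim arrays and on no NB_FACS array were 77 genes, of which 68 are among those called higher. The reverse held for 85 genes, of which 72 are among those called lower. Of the calls described below, those of Tmem119, Golm1, Crybb1, Kif11, Pcna, Fosl2, Ccl6, Pf4, Ppbp, Cst7, Lrg1, Tafa2, Aqp1, Tyrobp, Cd163, Cd74, Olig1, Flt1, Ttr, Mid1, P2ry6, P2ry14, Adora1, Adora3, Cdkn2d and Ddx3y were lost under Tukey's test with Benjamini-Hochberg adjustment over all genes. The study names Tukey's test among its tests but describes no adjustment across genes. The call of Ppbp was also lost with normexp background correction, and that of Cd63 without the filter on dim probes.

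**Figure D1:**
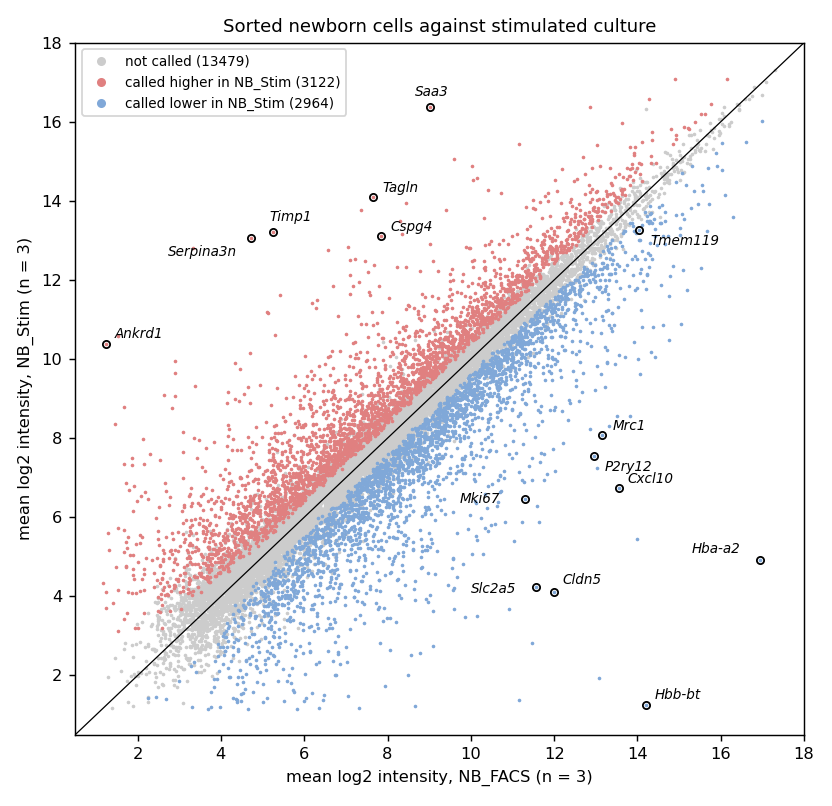
Mean log2 intensity of each of 19565 genes in NB_FACS (horizontal axis) and NB_Stim (vertical axis), 3 arrays each, with the diagonal of equal values. Red points are the 3122 genes called higher in NB_Stim, blue points the 2964 called lower and grey points the rest, and circles mark genes described in the text. Serpina3n and Timp1 lay far above the diagonal, and Hba-a2, Hbb-bt, Cldn5 and Slc2a5 far below it.

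The 12 largest rises were taken from called genes of which every probe was well above background on all 6 arrays and whose groups did not overlap, which left out genes such as Timp1 and Nfkbiz with a dimmer probe. Serpina3n, a secreted serine protease inhibitor, read 4.51, 5.14 and 4.50 in NB_FACS and 12.75, 12.64 and 13.81 in NB_Stim. Pkp2, a desmosomal plaque protein, read 4.53, 5.28 and 5.63 against 11.31, 11.16 and 11 (difference 6.01, SE 0.51, adjusted p 2.48e-05). Fbxo2, a subunit of a ubiquitin ligase that binds glycoproteins, differed by 5.77 (adjusted p 1.28e-05), and Ccn2, a matricellular protein and classical TGF-β target, by 6.18 (adjusted p 1.34e-06). The Ccn2 arrays of NB_Control, which received no TGF-β1, read 12.23 to 12.78 and overlapped those of NB_Stim at 12.21 to 13.18. Fgf1, a fibroblast growth factor, stood at 4.39 to 4.99 in NB_FACS and at 10.08 to 10.21 in NB_Stim, with 6.84 to 8.61 in NB_Control. Anxa1, a phospholipid-binding protein that restrains inflammation, rose by 5.42 (adjusted p 5.51e-05), and its NB_Control arrays were higher still at 12.99 to 13.95. That the NB_FACS and NB_Stim arrays did not overlap for these genes was a condition of the choice. The genes were also chosen as called and as the largest rises, so their adjusted p is no further support.

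Some genes were above background in one group only, and for these the fold is a lower bound. Here and below, the adjusted p beside such a bound is that of the normalised values, some of them below background, and not of the bound. The genes of this paragraph were chosen for this pattern, so their adjusted p is no further support for it. Serpinb2, an inhibitor of plasminogen activators, was not above background on any NB_FACS array and read 10.80, 11.01 and 9.92 in NB_Stim, at least 133-fold higher (adjusted p 3.45e-07). Ankrd1, a nuclear ankyrin repeat protein, was at least 117-fold higher (adjusted p 1.59e-06), Lce1i, a late cornified envelope gene, at least 38.4-fold, and the uncharacterised 1110046J04Rik at least 21.2-fold. Gzme, a granzyme, was at least 28.4-fold higher and the cytochrome P450 gene Cyp1b1 at least 17.5-fold. Serpinb2, Ankrd1 and Gzme were also bright in NB_Control, at 10.01 to 10.59, 8.33 to 10.09 and 7.03 to 9.11, and Cyp1b1 was higher there (9.31 to 9.57) than in NB_Stim (7.52 to 7.90).

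**Figure D2:**
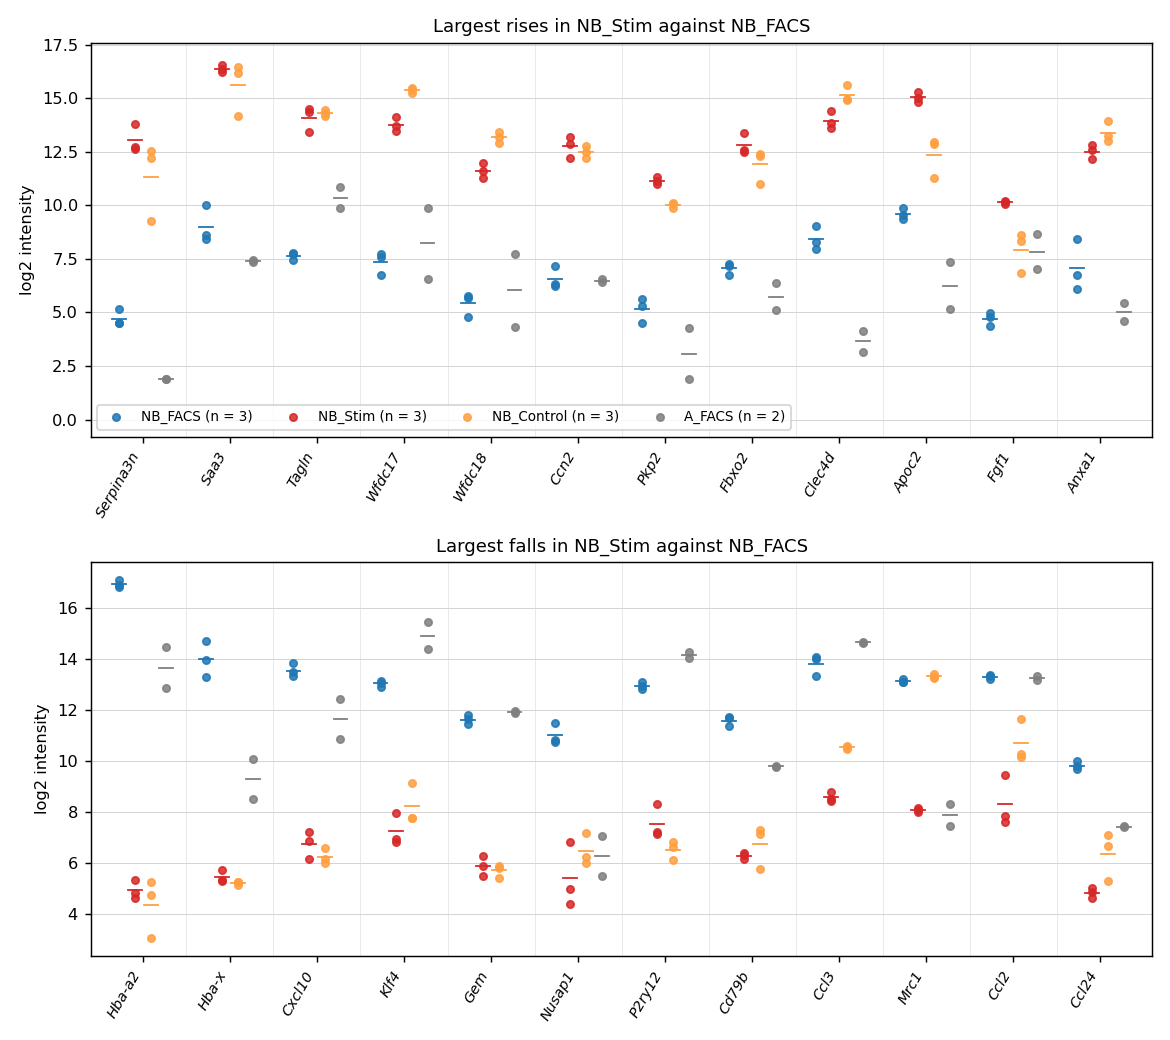
Log2 intensity per array of the 12 largest rises (upper panel) and the 12 largest falls (lower panel) in NB_Stim against NB_FACS, with NB_Control and A_FACS beside them. Points are arrays and short lines are group means. NB_Control lay near NB_Stim for most of these genes, whereas for Mrc1 it lay with NB_FACS.

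Of the 24 microglia identity genes tested, 11 were lower in NB_Stim, 2 were higher and 11 were not called, and the median difference was -0.68 against 0.109 over all genes. The median was -0.72 on slide 1 and -0.40 on slide 2. The genes fell into those that stayed far below the newborn brain and those close to it. Slc2a5, a fructose transporter typical of microglia, read 11.92, 11.89 and 10.91 in NB_FACS and 3.95, 4.14 and 4.60 in NB_Stim (difference -7.34, SE 0.30, adjusted p 3.93e-07), and it was above background on only 1 NB_Stim array. P2ry12 and P2ry13, Gi-coupled receptors for ADP, differed by -5.41 and -3.75 (adjusted p 2.28e-06 and 5.15e-06). Siglech, a sialic acid-binding lectin, read 9.73, 9.70 and 9.58 against 4.75, 4.64 and 4.07 (difference -5.18, SE 0.18, adjusted p 2.77e-07). Its fall was called under every alternative, but its size depended on the processing and ranged from -5.31 to -1.62. Smaller falls were found for Hpgds, a prostaglandin D synthase (-1.91), the adhesion GPCR Adgrg1 (-1.67), the crystallin gene Crybb1 (-1.50), the leukotriene C4 synthase Ltc4s (-0.88) and the Golgi protein Golm1 (-0.76). Over the alternatives Adgrg1 ranged from -2.12 to -0.63 and Crybb1 from -4.25 to -0.95. Adult cells were above the newborn level for Slc2a5, P2ry12, P2ry13 and Siglech, with A_FACS arrays at 13.73 and 14.03, 14.06 and 14.28, 11.38 and 11.67, and 10.91 and 11.09.

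Other identity genes lay closer to the newborn brain. Cx3cr1 read 14.11, 14.13 and 13.62 in NB_FACS and 13.97, 13.89 and 13.39 in NB_Stim, with a 95% interval of the difference from -1.32 to 0.91, which leaves a 2-fold fall possible. Its NB_Control arrays read 10.40, 10.45 and 8.30, and the sort had selected NB_FACS cells for high CX3CR1 protein. Olfml3, a secreted olfactomedin-like protein, had an interval from -0.34 to 0.52, and Mertk, a receptor for apoptotic cells, from -0.53 to 0.19. Fcrls, an Fc receptor-like protein, had an interval from -1.11 to 0.56, which also reaches beyond a 2-fold fall. Tmem119 read 14.11, 14.07 and 13.93 against 13.11, 13.14 and 13.53, and its fall of 0.78 was smaller without NB_Stim replicate 1 (-0.70) and then no longer called. Itgb5, the integrin subunit that pairs with αv, was the clearest member above the newborn level, at 15.20, 15.15 and 15.24 against 13.95, 14.06 and 13.74 (difference 1.28, SE 0.17, adjusted p 0.000301), while NB_Control read 13.05 to 13.61.

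**Figure D3:**
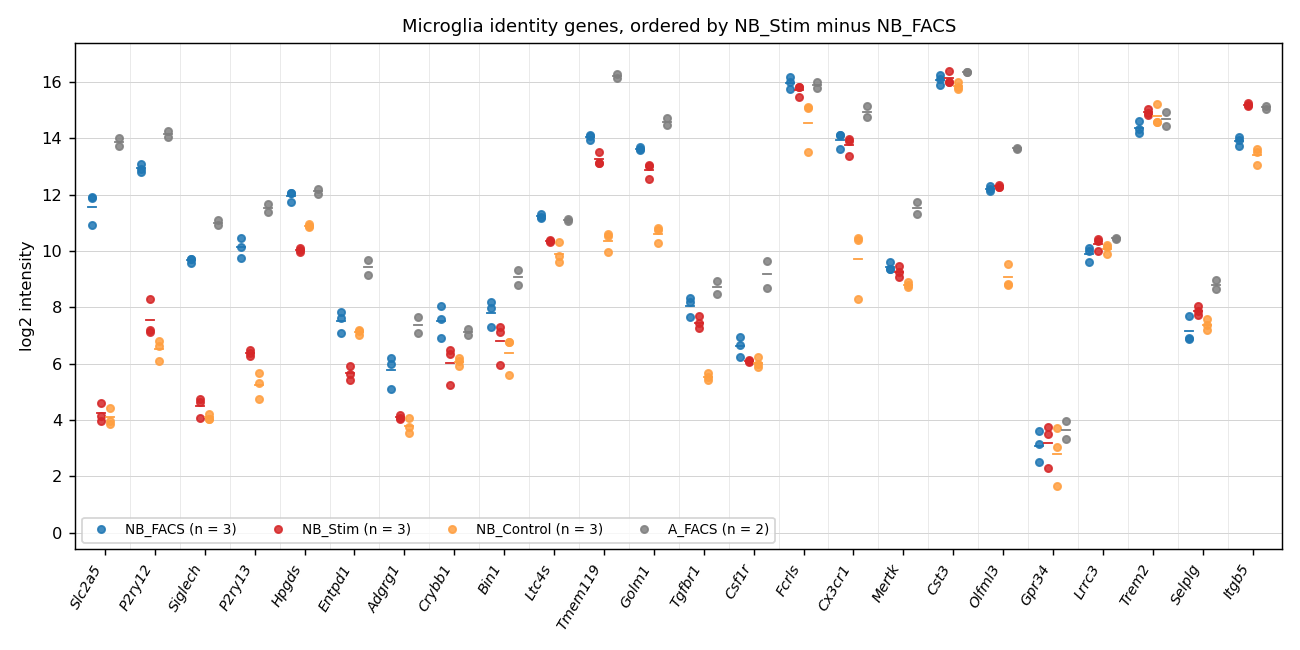
Log2 intensity per array of the 24 identity genes, ordered from the largest fall to the largest rise in NB_Stim against NB_FACS, with NB_Control and A_FACS. Points are arrays and short lines are group means. Slc2a5, P2ry12, Siglech and P2ry13 lay far below NB_FACS, Cx3cr1 and Olfml3 overlapped it, and Itgb5 lay above it.

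Transcription factors of microglia and macrophages moved both ways, with 4 of 12 tested members higher, 3 lower and 5 not called. Bhlhe41, a basic helix-loop-helix repressor, rose by 2.45 (9.81 to 10.06 against 7.31 to 7.84, SE 0.24, adjusted p 5.66e-05), and Mitf, a regulator of lysosomal genes, by 0.90 (adjusted p 0.000677). Maf fell by 1.26 (adjusted p 0.000141), with NB_Control above NB_FACS at 11.95 to 12.36. Smad3, which carries the TGF-β signal to the nucleus, fell by 2.13 (adjusted p 0.00119), but rested on several probes, and the difference was -1.08 and not called with the brightest probe alone or under the stricter background filter. Sall1, Mef2c, Irf8 and Spi1 were not analysed here.

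Of 13 genes of nucleotide and adenosine signalling 9 were called lower and 4 higher, though not all calls held under the alternatives. That of P2ry6, a UDP receptor (-0.50, adjusted p 0.0382), was lost under 8 of 17 alternatives, among them leaving out any NB_Stim array (-0.60 to -0.43 over the arrays left out). The call of Adora3 (-1.45, adjusted p 0.0131) was lost without NB_FACS replicate 2, and that of P2ry14 (3.55, adjusted p 0.00402, above background on 1 NB_FACS array) without the filter on dim probes (0.62). Beside P2ry12 and P2ry13, the ATP-gated channel P2rx1 fell from 7.47, 7.61 and 7.62 to 4.12, 4.05 and 4.40 (difference -3.38, SE 0.18, adjusted p 2.12e-06, above background on 2 NB_Stim arrays), and P2rx7 fell by 0.94 (adjusted p 0.00375). P2rx4, a further ATP-gated channel, rose by 1.26 (adjusted p 0.000698). Of the enzymes, the ectonucleotidase Entpd1, which degrades ATP and ADP, fell by 1.86 (adjusted p 0.000185) and adenosine deaminase Ada by 1.99 (adjusted p 9.94e-05). Nt5e, which makes adenosine from AMP, was not above background in NB_FACS and read 7.76, 7.86 and 6.39 in NB_Stim, at least 14.1-fold higher (adjusted p 0.000378). The adenosine receptor Adora2b read 8.54, 9.09 and 9.21 against 5.80, 5.71 and 4.29 (difference -3.68, SE 0.40, adjusted p 0.000102), with NB_Control between them at 6.67 to 7.25.

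For the 3 added cytokines, 16 ligand and receptor genes were tested, 5 higher, 3 lower and 8 not called, with a median of -0.08 (-0.20 to 0 when single arrays were left out). Csf1, which encodes M-CSF, fell by 2.13 (9.63, 9.82 and 8.26 against 11.53, 11.46 and 11.13, SE 0.40, adjusted p 0.00255). The TGF-β co-receptor endoglin, Eng, fell by 2.62 (adjusted p 0.000156), and Nrros, which tethers latent TGF-β on microglia, by 1.36 (adjusted p 0.00247), with NB_Control at 13.21 to 14.26 around the NB_FACS level of 13.70 to 13.81. Itgav, a subunit of the integrins that release active TGF-β, rose by 1.27 (adjusted p 0.000466), and Sdc1, a heparan sulphate proteoglycan that binds IL-34, by 2.20 (adjusted p 0.000599). The receptor Tgfbr1 stood at 7.25 to 7.69 against 7.65 to 8.34 in NB_FACS and 5.41 to 5.67 in NB_Control, and its difference of -0.60 had an adjusted p of 0.0562, which was 0.0433 with the replicate block, while without NB_FACS replicate 3 the difference was -0.80 and called. Downstream, 16 SMAD genes gave 5 higher, 4 lower and 7 not called. Tgif2, a homeobox repressor of SMAD targets, read 12.30, 12.42 and 12.29 against 8.45, 8.39 and 8.59 (difference -3.86, SE 0.21, adjusted p 2.23e-06), and Smad2 fell by 1.34 (adjusted p 0.000634).

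Genes of the cell cycle were lower almost without exception. All but 1 of the 23 mitosis genes tested were called lower, with a median of -3.79, and Cenpf was not called. All but 1 of the 25 DNA replication genes were called lower, with a median of -2.12, and Cdc6 was not called. By array the mitosis median relative to the NB_FACS mean was -4.03, -3.92 and -3.29 in NB_Stim, -3.20 to -2.73 in NB_Control and -4.46 and -3.33 in A_FACS, so that the 2 cultured groups and the adult cells lay together, away from NB_FACS (-0.10 to 0.16). Mki67, the proliferation antigen Ki-67, read 11.48, 11.22 and 11.21 against 5.92, 6.67 and 6.74 (difference -4.86, SE 0.33, adjusted p 5.96e-06). The spindle genes Nusap1, Kif23 and Ndc80 fell by 5.64, 4.98 and 4.76, and cyclin B2, Ccnb2, by 4.73 (11.58, 11.62 and 12.27 against 6.84, 6.88 and 7.55, SE 0.37, adjusted p 1.54e-05). Kif11, a mitotic kinesin, fell by 1.04 only (adjusted p 0.00645). Among the replication genes Uhrf1, which copies DNA methylation, fell by 4.85 (adjusted p 1.16e-06), the helicase subunit Mcm5 by 4.16 (11.77, 11.65 and 11.87 against 7.39, 7.43 and 7.99, SE 0.21, adjusted p 1.48e-06) and the polymerase gene Pole by 3.94 (adjusted p 1.32e-05). The sliding clamp Pcna fell by 1.17 (adjusted p 0.00548). In bulk RNA, here and for every gene described, fewer cells of a kind and less RNA per cell cannot be told apart.

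The upstream stretches of 4 of these genes are shown, with the motif named for each gene in capitals. They were taken from members with large falls whose stretch held the motif, so they do not show how common it was. The sequences are the 250 bases before the RefSeq transcription start on GRCm38.p6, read 5′ to 3′ on the gene's strand. Ccnb2 (chr9:70421555-70421804, minus strand) and Top2a, the topoisomerase that unlinks sister chromatids (chr11:99024190-99024439, minus strand), show the CCAAT box and the CHR element TTTGAA, and Uhrf1 (chr17:56304063-56304312, plus strand) and Mcm5 (chr8:75109259-75109508, plus strand) the E2F motifs TTTGGCGC or TTTCGCGC, all searched on both strands.
Ccnb2: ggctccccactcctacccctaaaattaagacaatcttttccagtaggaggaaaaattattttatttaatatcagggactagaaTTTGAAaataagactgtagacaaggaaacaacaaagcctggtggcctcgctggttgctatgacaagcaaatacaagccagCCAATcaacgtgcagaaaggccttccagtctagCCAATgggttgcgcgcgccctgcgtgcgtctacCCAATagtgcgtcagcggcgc
Top2a: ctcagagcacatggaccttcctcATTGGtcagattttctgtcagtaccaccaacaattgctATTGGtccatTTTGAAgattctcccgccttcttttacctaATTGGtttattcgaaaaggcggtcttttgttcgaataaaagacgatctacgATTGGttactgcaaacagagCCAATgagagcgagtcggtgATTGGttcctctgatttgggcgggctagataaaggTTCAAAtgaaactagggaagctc
Uhrf1: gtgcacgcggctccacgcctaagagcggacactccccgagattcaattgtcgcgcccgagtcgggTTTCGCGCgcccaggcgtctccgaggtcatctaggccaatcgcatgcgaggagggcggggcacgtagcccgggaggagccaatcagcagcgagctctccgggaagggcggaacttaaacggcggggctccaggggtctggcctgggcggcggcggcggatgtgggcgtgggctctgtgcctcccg
Mcm5: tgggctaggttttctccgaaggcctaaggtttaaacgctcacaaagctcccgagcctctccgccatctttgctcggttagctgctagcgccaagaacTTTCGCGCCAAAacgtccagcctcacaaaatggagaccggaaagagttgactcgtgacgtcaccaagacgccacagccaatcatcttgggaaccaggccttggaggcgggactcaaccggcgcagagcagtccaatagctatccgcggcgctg
Of the 23 mitosis genes 19 had a RefSeq promoter. The window ran from 250 bases before to 50 bases after the start, and a gene counted if any of its promoters held the motif. A CCAAT box was held by 16 of the 19 (84.2%) and a CHR element by 14 (73.7%), against 41.1% and 20.2% of all 27025 genes with a promoter. Of the 25 replication genes 19 had a promoter, and 8 (42.1%) held an E2F motif against 0.929% of all genes with a promoter. The E2F match in Mcm5 is a pair that overlaps on the 2 strands. These matches are letters in a window and say nothing of binding.

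Brakes and D cyclins of the cell cycle were mixed, with 5 of 14 higher, 4 lower and 5 not called. Cdkn2a, which encodes the inhibitors p16 and p19ARF, read 6.22, 5.93 and 6.33 against 8.77, 8.90 and 8.75 (difference 2.65, SE 0.14, adjusted p 2.12e-06), and NB_Control read 8.73 to 8.95. Cdkn2b, the neighbouring inhibitor p15, rose by 1.62 (adjusted p 0.000704), Ccng1, a p53 target, by 1.89 (adjusted p 9.06e-06) and Ccng2 by 1.09 (adjusted p 0.000387). For Ccng2 the NB_Control arrays (9.13 to 9.53) overlapped NB_FACS (9.12 to 9.44). The anti-proliferative Btg1 fell by 1.69 (adjusted p 0.00072) and Cdkn1c, p57, by 1.24 (adjusted p 0.000316).

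Immediate early and dissociation response genes are switched on within minutes by many stimuli. Of the 25 tested 24 were lower in NB_Stim and 1 was higher, with a median of -2.59 and array medians of -2.53 to -2.71. The zinc finger factor Egr3 read 7.85, 7.24 and 6.84 in NB_FACS and was not above background on any NB_Stim array, at least 15.3-fold lower (adjusted p 2.82e-07). Fos, a subunit of AP-1, read 14.73, 14.87 and 14.22 against 11.19, 11.04 and 10.39 (difference -3.73, SE 0.45, adjusted p 0.000188). Egr1 fell by 4.28 (adjusted p 0.000105), Klf4 by 5.80 (adjusted p 1.32e-05) and the phosphatase Dusp1 by 4.43 (14.42, 14.26 and 13.51 against 9.60, 9.63 and 9.67, SE 0.26, adjusted p 2.56e-06). Fosl2, a late AP-1 subunit, was the member that rose (1.41, adjusted p 0.0079). In the adult cells, which were also sorted, the array medians were 1.18 and 0.95 above the NB_FACS mean, and in NB_Control they were -2.23 to -2.73, so that sorted and cultured arrays lay apart. Gem, a small GTPase outside this list, fell by 5.75 (11.65, 11.79 and 11.44 against 5.88, 5.49 and 6.25, SE 0.21, adjusted p 3.31e-07).

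The 13 heat shock genes gave 6 lower, 7 not called and none higher (46.2% called, beside 31.1% of all genes). Their median was -0.38, and it was -0.78 without NB_FACS replicate 3 and -0.74 without NB_Stim replicate 2. The largest falls were those of the inducible Hspa1a and Hspa1b, at -3.66 (10.85, 11.07 and 10.17 against 7.21, 7.24 and 6.66, SE 0.24, adjusted p 5.3e-06) and -3.53 (adjusted p 1.93e-05). Promoters of Dusp1 (chr17:26508473-26508722, minus strand) and Egr2 (chr10:67537316-67537565, plus strand) are shown as examples of the cyclic AMP response element TGACGTCA and of the CArG box bound by serum response factor. Egr2 is a zinc finger factor of the same list.
Dusp1: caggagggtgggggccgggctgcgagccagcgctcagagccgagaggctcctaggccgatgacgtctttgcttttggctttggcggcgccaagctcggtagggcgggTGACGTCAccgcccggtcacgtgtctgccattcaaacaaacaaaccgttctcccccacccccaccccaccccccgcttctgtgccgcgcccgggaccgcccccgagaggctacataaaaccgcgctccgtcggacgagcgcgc
Egr2: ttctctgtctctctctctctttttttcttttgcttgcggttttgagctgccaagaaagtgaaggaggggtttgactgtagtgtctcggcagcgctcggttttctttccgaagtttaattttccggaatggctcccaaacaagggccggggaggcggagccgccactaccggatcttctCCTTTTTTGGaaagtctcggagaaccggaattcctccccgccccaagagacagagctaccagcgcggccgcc
Of 22 immediate early genes with a promoter 3 (13.6%) held the first motif and 2 (9.09%) the second, against 2.03% and 1.81% of all genes with a promoter, both strands searched.

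Inflammatory mediators were mostly lower than in the sorted cells. Of 18 inflammatory cytokine and NF-κB feedback genes 10 fell, 1 rose and 7 were not called (median -2.47, and -1.45 with normexp background correction), and of 19 chemokines 10 fell, 5 rose and 4 were not called (median -2.15). Tnf, tumour necrosis factor, read 14.38, 14.30 and 14.58 in NB_FACS and 10.15, 10.02 and 9.99 in NB_Stim (difference -4.36, SE 0.13, adjusted p 1.66e-07). The NF-κB feedback genes Nfkbiz and Nfkbia fell by 5.37 (adjusted p 1.66e-07) and 2.50 (adjusted p 1.9e-06), Il1a by 3.46 (adjusted p 2.23e-06) and the adhesion molecule Icam1 by 3.31 (adjusted p 2.28e-06). Nlrp3, the inflammasome sensor, was above background on all NB_FACS arrays and no NB_Stim array, at least 6.13-fold lower (adjusted p 5.58e-05). Ptgs2, the inducible cyclooxygenase, was the member that rose (9.55, 9.62 and 9.05 against 11.39, 11.66 and 10.74, difference 1.86, SE 0.26, adjusted p 0.000514). The NB_Control arrays were also low, for Tnf (10.36 to 10.40), Nfkbiz (5.94 to 6.32) and Icam1 (10.70 to 11.05).

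The chemokines that fell were Ccl2, Ccl3, Ccl4, Ccl6, Ccl7, Ccl9, Ccl24, Cxcl1, Cxcl2 and Cxcl10, attractants of monocytes, neutrophils, eosinophils and T cells. Cxcl10, a CXCR3 ligand, read 13.84, 13.49 and 13.32 against 6.86, 6.13 and 7.21 (difference -6.82, SE 0.40, adjusted p 2.74e-06). Ccl3 read 14.09, 13.99 and 13.34 against 8.51, 8.42 and 8.77 (difference -5.24, SE 0.20, adjusted p 3.45e-07), Ccl2 differed by -5.01 (adjusted p 6.22e-05) and Ccl24 by -5.00 (adjusted p 1.14e-05). Ccl6 fell by 2.15 (adjusted p 0.0141), and without NB_FACS replicate 2 its difference of -2.04 was not called. Ccl9 fell by 3.49 (adjusted p 3.62e-05) although NB_Control stood above NB_FACS, at 13.40 to 14.57 against 12.57 to 12.75. Those that rose were Cxcl14, a CXC chemokine of epithelia, from 6.26, 6.29 and 6.27 to 11.58, 11.54 and 10.77 (difference 5.02, SE 0.32, adjusted p 4.73e-06), the platelet chemokines Pf4 (3.86, adjusted p 0.00262) and Ppbp (4.45, adjusted p 0.00659, above background on 1 NB_FACS array), Ccl5 (2.46, adjusted p 0.000844) and Cxcl16 (1.03, adjusted p 0.00181). The promoter of Cxcl10 (chr5:92348890-92349139, minus strand) is shown as the largest fall of the list, with its match to the NF-κB motif GGGANNTTCC in capitals.
Cxcl10: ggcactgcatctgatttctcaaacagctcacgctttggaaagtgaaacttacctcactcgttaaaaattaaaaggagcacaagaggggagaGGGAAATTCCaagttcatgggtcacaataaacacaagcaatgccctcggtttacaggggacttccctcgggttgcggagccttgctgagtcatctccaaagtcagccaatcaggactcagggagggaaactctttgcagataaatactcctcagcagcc
Of the genes with a promoter, 3 of 13 chemokines (23.1%) and 2 of 13 members of the inflammatory list (15.4%) held this motif, against 1.63% of all genes with a promoter, both strands searched.

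The interferon-stimulated genes of the list used here went the other way. Cxcl10, counted above with the chemokines, was not in this list. Of 23 tested 13 were higher, none was lower and 10 were not called, with a median of 1.18 (0.70 with normexp background correction) and array medians of 0.87 to 1.42. Usp18, a protease that removes ISG15 and damps the receptor, read 5.81, 5.96 and 6.50 against 8.97, 8.64 and 10 (difference 3.11, SE 0.45, adjusted p 0.000584). The antiviral genes Oasl2 (3.08, adjusted p 0.000907), Zbp1 (2.61, adjusted p 0.00181) and Oas1a (7.25, 7.46 and 7.26 against 9.80, 9.59 and 9.62, difference 2.35, SE 0.37, adjusted p 0.00101) rose, and so did the transcription factor Stat2 (1.51, adjusted p 0.000197). NB_Control array medians were higher than those of NB_Stim, at 2.23, 1.87 and 1.48. The promoter of Oas1a (chr5:120907526-120907775, minus strand) is shown because it is the member with 2 overlapping matches next to the start, to the interferon-stimulated response element GAAANNGAAA.
Oas1a: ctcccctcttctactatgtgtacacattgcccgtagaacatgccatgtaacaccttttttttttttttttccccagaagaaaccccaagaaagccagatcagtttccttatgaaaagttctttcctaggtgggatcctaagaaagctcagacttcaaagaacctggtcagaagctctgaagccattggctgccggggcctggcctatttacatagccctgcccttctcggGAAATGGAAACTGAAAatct
Of 17 interferon genes with a promoter 10 (58.8%) held this motif, against 3.99% of all genes with a promoter, both strands searched. The stretch of Cxcl10 above also holds a match to it, left in small letters there.

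Acute-phase and whey acidic protein (WAP) domain genes rose as a group, with 10 of 13 higher, none lower and a median of 3.44. They encode secreted proteins that the liver, epithelia and activated macrophages release in inflammation. Saa3, a serum amyloid A of macrophages, read 8.41, 8.60 and 10.03 against 16.54, 16.21 and 16.37. The WAP genes Wfdc17 and Wfdc18 reached 13.47 to 14.12 and 11.27 to 12 from 6.77 to 7.73 and 4.80 to 5.79. Cfp, properdin, rose by 4.81 (8.03, 8.15 and 8.88 against 13.32, 13.36 and 12.80, SE 0.46, adjusted p 5.24e-05), Lcn2, which binds bacterial siderophores, by 3.31 (adjusted p 0.000267) and Ptx3, a long pentraxin, by 2.82 (adjusted p 0.000848). For Wfdc17, Wfdc18, Cfp and Ptx3 all NB_Control arrays lay above all NB_Stim arrays. Hp, haptoglobin, was above background on 2 NB_FACS arrays (3.77, 4.47 and 7.11) and read 11.19, 10.99 and 11.38 in NB_Stim (difference 6.08, SE 1.03, adjusted p 0.00155). Its NB_Control arrays spread from 7.01 to 10.71, overlapping NB_FACS.

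Genes of activated and lipid-handling microglia were higher in 9 of 20 tested members, lower in 1 and not called in 10 (median 0.61). Lyz2, lysozyme, read 12.74, 12.94 and 12.94 against 16.28, 16.25 and 16.58 (difference 3.50, SE 0.38, adjusted p 0.000102), and Ch25h, which makes 25-hydroxycholesterol, read 5.92, 6.46 and 6.52 against 11.42, 11.32 and 11.76 (difference 5.20, SE 0.62, adjusted p 0.00019) with NB_Control between them at 8.48 to 9.02. Spp1, osteopontin, did not overlap between the groups (13.71, 14.01 and 14.90 against 16.35, 16.39 and 16.23), yet was not called (difference 2.12, SE 0.76, adjusted p 0.0589, and 0.0486 with the replicate block). Its SE comes from all 4 groups. Cst7, a cysteine protease inhibitor, read 8.83, 8.82 and 9.37 against 13.27, 13.22 and 12.21 (difference 3.89, SE 1.09, adjusted p 0.0221), and the call was lost without NB_Stim replicate 1 (3.71) or 2 (3.73) or NB_FACS replicate 1 (3.80) or 2 (3.79). Its NB_Control arrays, 8.44 to 10.54, overlapped NB_FACS. The adaptor Tyrobp rose by 1.01 (adjusted p 0.00638) and the tetraspanin Cd63 by 0.66 (adjusted p 0.00315). Apoe, apolipoprotein E, held the same value of 17.31 on every newborn array, because its probe was the brightest there and quantile normalisation gives the top rank the same value on every array. No difference in Apoe can therefore be read from these values. Its neighbours in the gene cluster could be read, with Apoc2 at 9.37, 9.57 and 9.88 against 15.28, 15.03 and 14.83 (difference 5.44, SE 0.56, adjusted p 7.9e-05) and Apoc4 higher by 1.98 (adjusted p 0.00012).

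Receptors of the macrophage surface moved in both directions. Among 13 C-type lectin receptors 5 fell and 3 rose. The mannose receptor Mrc1 read 13.23, 13.11 and 13.11 against 8.01, 8.06 and 8.17 (difference -5.07, SE 0.19, adjusted p 3.45e-07), Cd93 fell by 3.63 (adjusted p 5.48e-06), Clec4a2 by 3.56 (adjusted p 3.37e-06) and Clec4a3 by 2.90 (adjusted p 0.000182). In NB_Control these 4 overlapped NB_FACS (Clec4a2) or lay above it, Mrc1 at 13.27 to 13.40 and Cd93 at 11.78 to 12.42. Clec4d, a receptor for mycobacterial glycolipid, rose by 5.50 (7.97, 8.30 and 9.06 against 13.84, 13.60 and 14.39, SE 0.36, adjusted p 5.15e-06), Clec4n, dectin-2, by 3.54 (adjusted p 5.88e-06) and Clec4b1 by 1.96 (adjusted p 3.54e-05). Among 11 scavenger receptors 4 rose and 3 fell. Marco read 2.39, 2.77 and 3.54 against 9.42, 9.03 and 10.47 (difference 6.75, SE 0.37, adjusted p 2.23e-06, above background on 1 NB_FACS array), Colec12 rose by 4.65 (adjusted p 2.12e-06) and Msr1 by 2.77 (adjusted p 1.51e-05). Cd163, the haemoglobin-haptoglobin receptor, was at least 10.4-fold lower (adjusted p 0.00352).

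Of 13 Toll-like receptor genes 5 fell and 3 rose. Tlr2, the receptor for bacterial lipoproteins, read 14.92, 15.04 and 15.26 against 13.86, 13.58 and 13.61 (difference -1.39, SE 0.26, adjusted p 0.00268), its partner Tlr1 fell by 2.40 (adjusted p 0.000245), the DNA sensor Tlr9 by 1.71 (adjusted p 0.000496) and the adaptor Myd88 by 1.07 (adjusted p 0.000743). The RNA sensor Tlr8 rose by 3.74 (3.35 to 3.72 against 7.14 to 7.44, SE 0.14, adjusted p 3.45e-07, above background on 1 NB_FACS array). Fc and TREM receptors gave 3 higher and 3 lower of 12, with the inhibitory Fcgr2b up by 1.97 (adjusted p 2.02e-05) and Trem1 and Cd33 down by 1.79 (adjusted p 0.00132, above background on 2 NB_Stim arrays) and 1.51 (adjusted p 0.000152). Complement genes gave 2 higher, 3 lower and 11 not called of 16, a called share of 31.2% beside 31.1% of all genes, with a median of 0. C3 rose by 2.26 (10.05, 10.11 and 10.02 against 12.50, 12.27 and 12.19, SE 0.41, adjusted p 0.0023), and the C1q subunits C1qa and C1qb had intervals of -0.32 to 0.47 and -0.34 to 0.31. MHC class II genes gave 1 higher, 1 lower and 8 not called of 10, a called share of 20% and so below that of all genes. The invariant chain Cd74 was lower by 2.92 (13.34, 13.24 and 13.10 against 10.92, 10.92 and 9.07, SE 0.74, adjusted p 0.0132). The 12 MHC class I loading genes gave 5 higher and 2 lower (median 0.16, and -0.05 with 75th percentile scaling). Of 12 integrins 5 rose and 2 fell, among them the β2 subunit Itgb2 (1.34, adjusted p 0.000804) and the fibronectin receptor subunit Itga5 (-1.75, adjusted p 0.00109).

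Metabolic genes separated by pathway. Of 19 glycolysis and hypoxia response genes 15 were higher, 1 lower and 3 not called (median 1.29), against 1 of 22 respiratory chain subunits (median 0.15, and -0.03 with 75th percentile scaling). Pkm, pyruvate kinase, read 8.72, 8.56 and 7.86 against 11, 11.01 and 10.33 (difference 2.40, SE 0.27, adjusted p 0.000127), enolase Eno1 rose by 1.91 (adjusted p 0.000562) and aldolase Aldoa by 1.77 (adjusted p 0.000699). Egln3, an oxygen-sensing prolyl hydroxylase that is itself a target of hypoxia-inducible factor, rose by 5.30 (6.78, 7.30 and 7.60 against 12.99, 12.91 and 11.67, SE 0.80, adjusted p 0.000808), and Vegfa by 3.63 (adjusted p 0.000909). Pfkfb3 was the member that fell (-1.08, adjusted p 0.0042), and Cox7a2 the respiratory subunit that rose (0.81, adjusted p 0.00647). Of 17 NRF2 targets and antioxidant enzymes 9 rose and 3 fell, with catalase, Cat, up by 1.87 (adjusted p 0.000406), the cystine transporter Slc7a11 by 1.99 (adjusted p 0.00239) and the ferritin heavy chain Fth1 by 0.93 (adjusted p 0.000291), while Nfe2l2, NRF2 itself, fell by 1.42 (adjusted p 0.000126).

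Among 25 lysosomal genes 7 rose, 1 fell and 17 were not called (median 0.21, and 0.08 to 0.27 without single arrays). Their called share was 32%, beside 31.1% of all genes. Lipa, lysosomal acid lipase, rose by 1.56 (adjusted p 8.6e-05), Glb1, β-galactosidase, by 1.59 (adjusted p 0.000863) and cathepsin H, Ctsh, by 1.47 (adjusted p 8.06e-05). Acp5, tartrate-resistant acid phosphatase, fell from 11.90, 11.95 and 12.06 to 7.73, 7.44 and 8.03 (difference -4.24, SE 0.64, adjusted p 0.00082). Sterol synthesis gave 1 higher, 3 lower and 16 not called of 20 (median -0.19, and -0.24 to 0.03 without single arrays), a called share of 20% and so below that of all genes. Sterol efflux and apolipoproteins gave 4 higher and 2 lower of 11, and lipid droplet and fatty acid oxidation genes 7 higher and 4 lower of 15.

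**Figure D4:**
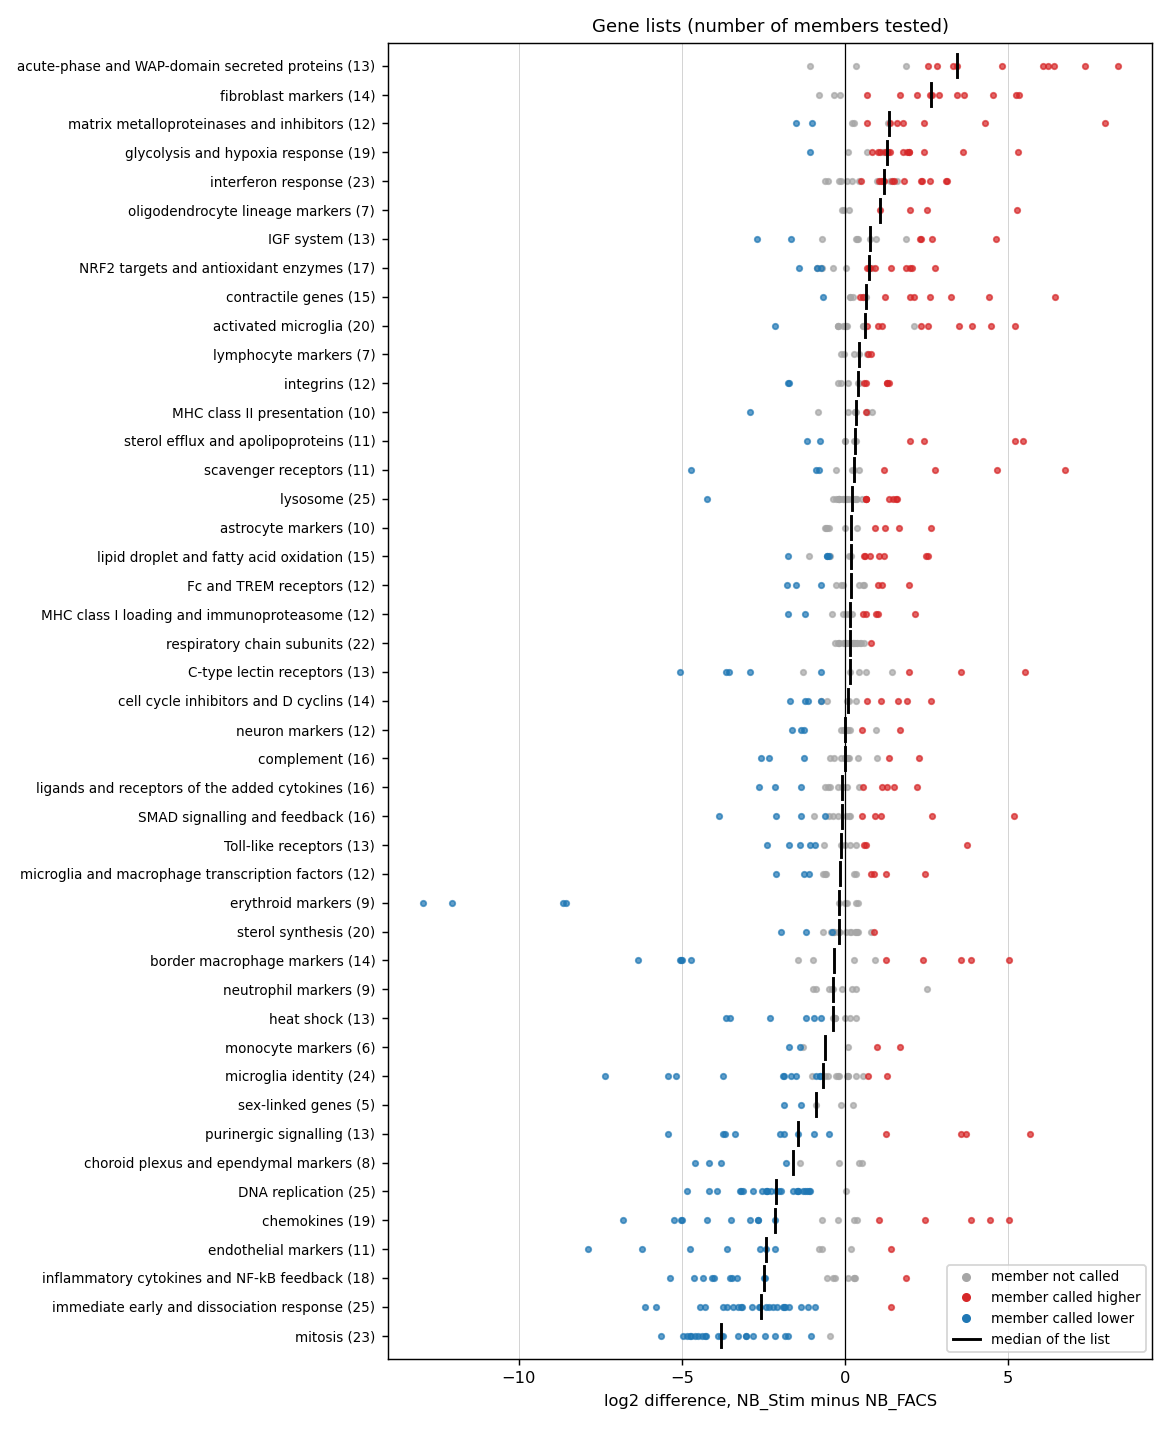
Log2 difference, NB_Stim minus NB_FACS, of each tested member of the gene lists (points, red where called higher, blue where called lower, grey where not called) with the median of each list (black line), ordered by median. The number of members tested stands in parentheses. Mitosis (-3.79) and immediate early genes (-2.59) lay at one end, and acute-phase and WAP-domain genes (3.44) and fibroblast markers (2.63) at the other.

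Of 12 metalloproteinase and inhibitor genes 7 rose and 2 fell (median 1.34). Timp1, the inhibitor of metalloproteinases, read 5.09, 5.11 and 5.54 against 13.62, 13.83 and 12.21 (difference 7.98, SE 0.37, adjusted p 1.07e-06), and the membrane protease Adam8 rose by 4.28 (adjusted p 2.13e-07). Of 15 contractile genes 9 rose and 1 fell (median 0.63, with Acta2, smooth muscle actin, at 3.26 but at -0.45 with its brightest probe alone), with Tagln at 7.77, 7.43 and 7.75 against 14.36, 14.49 and 13.41, caldesmon, Cald1, up by 4.42 (adjusted p 5.07e-05) and tropomyosin 1, Tpm1, by 2.60 (adjusted p 2.99e-06). Of 13 genes of the IGF system 4 rose and 2 fell, a called share of 46.2% beside 31.1% of all genes. For the binding protein Igfbp5 the NB_Control arrays overlapped NB_FACS. It read 7.35, 7.35 and 7.22 in NB_FACS, 11.84, 11.95 and 12.01 in NB_Stim and 7.81, 7.84 and 6.87 in NB_Control (difference 4.63, SE 0.48, adjusted p 8.34e-05). Igfbp4 went the other way, at 12.93, 12.76 and 12.18 in NB_FACS, 9.82, 9.86 and 10.12 in NB_Stim and 12.73, 12.52 and 12.76 in NB_Control (difference -2.69, SE 0.20, adjusted p 1.02e-05). Igf2r, the mannose 6-phosphate receptor, rose by 2.29 (adjusted p 0.0005).

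Markers of other cell types moved with the comparison in both directions, and their part in the other results was not tested. Fibroblast markers were higher in 11 of 14 genes, lower in none and not called in 3 (median 2.63). Their summed linear intensity was 2110 to 2460 in NB_FACS, 11600 to 24700 in NB_Stim and 20500 to 25600 in NB_Control. The collagen gene Col1a1 read 6.68, 7.37 and 7.27 against 11.86, 12.30 and 10.78 (difference 4.54, SE 0.44, adjusted p 5.62e-05), Col5a2 rose by 5.22 (adjusted p 5.01e-06) and Thy1 by 5.33 (adjusted p 0.00103). Within NB_Stim array 3 was the lowest for Timp1, Tagln, Cald1, Col1a1, Col5a2 and Thy1. The pericyte receptor Pdgfrb was not called (5.60, 4.53 and 3.08 against 4.83, 5.20 and 2.69). Oligodendrocyte lineage markers were higher in 4 of 7 (median 1.06). Cspg4, the proteoglycan NG2, supplied most of their sum, at 7.94, 7.86 and 7.76 against 13.48, 13.42 and 12.41 (difference 5.25, SE 0.46, adjusted p 2.8e-05) and 9.34 to 9.67 in NB_Control. The lineage factor Olig1 read 5.56, 5.73 and 5.69 against 7.05, 7.17 and 8.73 (difference 1.99, SE 0.39, adjusted p 0.00361), highest on NB_Stim array 3. Astrocyte markers were higher in 4 of 10 and not called in 6 (40% called, beside 31.1% of all genes), with a median of 0.19. Their summed intensity was 3070 to 3450 against 3960 to 5270. Among those called, S100b rose by 2.63 (adjusted p 0.00137) and Aldoc by 1.64 (adjusted p 1.55e-05). Among those not called, Gja1 (-0.62), Sox9 (-0.60), Slc1a3 (-0.56) and Aldh1l1 (-0.50) read lower.

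Summed signals of vessel, red blood cell and ventricle markers were lower in NB_Stim. Of 11 endothelial markers 7 were lower in NB_Stim, 1 was higher and 3 were not called, with summed intensities of 6220 to 8930 against 2150 to 2600, and Tek, Emcn and Slco1a4 were above background on no NB_Stim array. The tight junction gene Cldn5 read 12.27, 11.71 and 12 against 4.60, 3.38 and 4.38 (difference -7.87, SE 0.37, adjusted p 1.08e-06, above background on 2 NB_Stim arrays), and the angiopoietin receptor Tek was at least 23.6-fold lower (adjusted p 6.06e-06). Flt1, VEGF receptor 1, was the member that rose (1.41, adjusted p 0.00434). Of the 9 erythroid markers 4 were lower and 5 not called (44.4% called, beside 31.1% of all genes). The 9 markers summed to 149000 to 205000 in NB_FACS and to 391 to 442 in NB_Stim. The β-globin gene Hbb-bt read 13.93, 13.71 and 14.97 in NB_FACS and was above background on no NB_Stim array, at least 1820-fold lower (adjusted p 2.64e-07), and Alas2, the erythroid enzyme of haem synthesis, read 11.31, 10.81 and 12.26 against 2.83, 2.19 and 3.43 (difference -8.64, SE 0.50, adjusted p 2.71e-06, above background on 1 NB_Stim array). Hbb-b2 and Hbb-b1 were at least 838-fold and 220-fold lower, and the embryonic α-like globin Hba-x read 13.31 to 14.70 against 5.29 to 5.71. Globin genes are near-identical copies, so signal may be shared between them. Choroid plexus and ependymal markers were lower in 4 of 8, with sums of 17400 to 56400 against 2260 to 6120, and Ttr, transthyretin, spread from 13.95 to 15.73 in NB_FACS and from 9.93 to 12.17 in NB_Stim (difference -4.16, SE 0.97, adjusted p 0.00897).

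**Figure D5:**
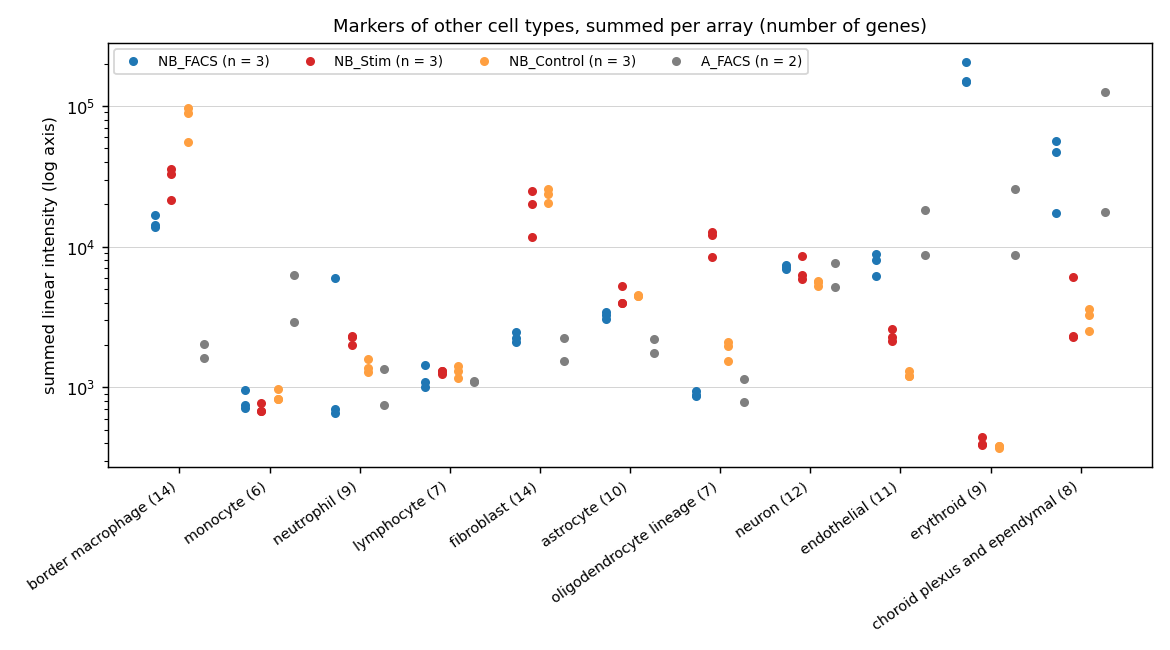
Summed linear intensity of the marker genes of 11 other cell types on each array (vertical log axis), with the number of genes in parentheses, for NB_FACS, NB_Stim, NB_Control and A_FACS. Each point is an array. Erythroid, choroid plexus and endothelial sums were higher in NB_FACS than in NB_Stim, and fibroblast and oligodendrocyte lineage sums lower.

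Border macrophage markers moved in both directions, with 5 of 14 higher, 5 lower and 4 not called, and their sum was 13900 to 16700 in NB_FACS and 21400 to 35400 in NB_Stim. Mrc1, Ccl24, Cd163, Cbr2 and the hyaluronan receptor Lyve1 fell. Cbr2, a carbonyl reductase, read 9.10, 9.08 and 9.09 against 2.00, 2.28 and 3.97 (difference -6.34, SE 0.80, adjusted p 0.000261), and Lyve1 differed by -5.02 (adjusted p 0.000458), each above background on 1 NB_Stim array. Ms4a7 rose from 7.06, 7.54 and 7.78 to 12.50, 12.26 and 12.72 (difference 5.03, SE 0.52, adjusted p 7.99e-05) with NB_Control at 14.07 to 14.22. Monocyte markers gave 2 higher and 2 lower of 6, and lymphocyte markers 2 higher of 7 (28.6% called, beside 31.1% of all genes). No neutrophil marker of 9 was called, although the NB_FACS sums spread from 662 to 6010, with the highest on replicate 3. Neuron markers gave 2 higher, 3 lower and 7 not called of 12 (41.7% called, beside 31.1% of all genes), with sums of 6970 to 7360 against 5920 to 8600. Cd79b, a B cell receptor subunit that newborn and adult microglia also carried here (11.36 to 11.71 in NB_FACS, 9.78 and 9.80 in A_FACS), fell to 6.15 to 6.39 (difference -5.31, SE 0.34, adjusted p 4.63e-06). Of 5 sex-linked genes 2 were called lower (40% called, beside 31.1% of all genes). Both calls were lost without any one NB_FACS array, with the 2 groups alone, without the filter on dim probes and under Tukey's test. The Y-linked gene Ddx3y read 9.17, 8.97 and 6.43 in NB_Stim against 9.64 to 10.44 in NB_FACS, so that array 3 of NB_Stim was the lowest, and the difference of -1.87 (adjusted p 0.0459) was -2.36 to -0.99 when single arrays were left out.

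The untreated culture was set beside the 2 groups compared. Of the 1539 genes at least 2-fold higher in NB_Stim than in NB_FACS, the NB_Control mean was nearer to NB_Stim for 1335 and nearer to NB_FACS for 204 (13.3%), and it lay beyond NB_Stim for 664 (43.1%). Of the 1678 genes at least 2-fold lower, it was nearer to NB_Stim for 1523 and nearer to NB_FACS for 155 (9.24%), and it lay beyond NB_Stim for 475 (28.3%). These counts share the NB_FACS and NB_Stim arrays with the calls and are a description. Igfbp5 and Hp were among the higher genes, and Clec4a2 and Igfbp4 among the lower genes, whose NB_Control arrays overlapped NB_FACS, and Mrc1 read above NB_FACS in NB_Control. Also among the lower genes were Tm6sf1, a membrane protein (9.26, 9.14 and 8.08 against 6.59, 6.43 and 5.08, NB_Control 7.49 to 8.17, difference -2.79, SE 0.44, adjusted p 0.000947), and Mid1, a microtubule-associated ubiquitin ligase (-2.83, SE 0.56, adjusted p 0.00378). The calls of Lrg1, a secreted leucine-rich glycoprotein, and Aqp1, a water channel of the choroid plexus, were lost, like that of Cst7, when any 1 of 4 arrays was left out. Lrg1 was higher by 4.49 (SE 1.33, adjusted p 0.028, above background on 1 NB_FACS array), which was not called without NB_Stim replicate 1 (4.13) or 2 (4.05) or NB_FACS replicate 1 (4.35) or 2 (3.56). Aqp1 was lower by 3.80 (SE 1.06, adjusted p 0.0213, above background on 2 NB_Stim arrays), which was not called without NB_Stim replicate 1 (-3.71) or 2 (-3.55) or NB_FACS replicate 1 (-3.63) or 3 (-3.42), nor with normexp background correction (-2.21). Orm2, an acute-phase glycoprotein, was at least 3.03-fold higher (adjusted p 0.0011), and Tafa2, a secreted chemokine-like protein, differed by 3.18 (SE 0.80, adjusted p 0.0124, above background on 1 NB_FACS array, and 1.37 and not called without the filter on dim probes).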

How the data were processed

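RNA of 11 mouse microglia samples was measured on single-colour Agilent arrays. The deposited scanner files, written by Agilent Feature Extraction version 11 according to the submitters' processing notes, give per spot an intensity from which the authors' software had subtracted background. The deposited table of processed values was not used here. Of 62976 spots 1439 were controls. Intensities of 60037 probes were taken to log2, spots flagged as outliers were left out (138 probes lost every spot on some array), the other spots of a probe were averaged, and arrays were quantile normalised. Probes well above background on all arrays of at least 1 group were kept (44738). Probe accessions matched RefSeq transcripts for 36190 probes (60.4%), and probes of a gene were averaged, giving 19565 genes, of which 4901 had several probes.

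A linear model with 1 mean per group was fitted to all 11 arrays in limma 3.58.1 under R 4.3.3 (residual degrees of freedom 7), and NB_Stim minus NB_FACS was tested with Benjamini-Hochberg adjustment over all genes at 0.05. The fit was tested on simulated data with independent noise on each array. The real arrays share slides and replicate numbers, so the simulation gives no error rate for these data. For a probe dim on all arrays of a group the fold is a lower bound against the lowest signal well above background. Array deviations of the same replicate number correlated between the groups by 0.344, 0.112 and 0.441, so the numbers were treated as pairs in an alternative with a replicate block. Replicate 3 of the newborn groups lay on slide 2, so that pairing and slide partly coincide.

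The gene lists and the samples compared were chosen with earlier results of these data known. Genes were named by rule: the 12 largest rises and falls measured on all arrays, the 6 largest bounds each way, the 6 largest differences each way whose NB_Control arrays overlapped NB_FACS, and in each list up to 4 members each way and up to 2 not called. A few genes so named are not reported here. Genes beyond these were chosen after their values were seen. Promoters are from RefSeq. Alternatives were 75th percentile scaling, normexp background correction, no or a stricter filter, the brightest probe, the 2 groups alone, blocks for replicate or slide, a variance trend, averaging of replicates 1 and 2 of the cultured groups, Tukey's test, each array left out, and unnamed probes kept.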

Additional observations from a re-analysis of the deposited data

How the results depend on the processing

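The count of 6086 called genes was between 4642 and 6586 when an array was left out, with 2312 to 3581 higher and 2262 to 3117 lower. With the replicate block 7832 genes were called (4137 higher, 3695 lower), and with the slide block 8157. Among the genes described above, the pairing changed only the calls of Tgfbr1 and Spp1, which were gained, and Ddx3y, which was lost (adjusted p 0.0532). Other list members gained a call with it, among them Bin1 (main difference -1.02, adjusted p 0.0012 with the replicate block) and Trem2 (0.56, adjusted p 0.0224) of the identity list. Averaging replicates 1 and 2 of the cultured groups gave 2055 higher genes, Tukey's test 3621 genes (1757 higher, 1864 lower), a log2 difference of at least 1 3217, and keeping probes without a symbol 9500. With 75th percentile scaling the split was 2869 higher and 3198 lower. The averaging also ended the calls of Tmem119 (-0.71), Cst7 (3.72), Lrg1 (4.09), Aqp1 (-3.63) and P2ry6 (-0.49). The cause was not tested.

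Among called list members Acta2 (-0.45), Gins1 (0.35) and Lamp2 (-0.12) turned with the brightest probe and Cdkn2d (0.05) without the filter. The other named genes that changed direction were not called. C1qb was 0.03 with normexp, 0.05 with the averaging and -0.14 to 0.08 without single arrays, Olfml3 was -0.12 and Apoe 0.05 with 75th percentile scaling, and Apoe was 0.00 with the averaging and without single arrays. Without single arrays Cdc6 was -0.10 to 0.18, Pdgfrb -0.83 to 0.61 and Slco1a4 -1.27 to 0.08. List medians fell in size with normexp, for the interferon response to 0.70, inflammatory cytokines to -1.45 and endothelial markers to -1.06, and those of MHC class I loading (-0.05) and respiratory chain genes (-0.03) turned with 75th percentile scaling. Intensities near background limit the lowest genes, whose folds are bounds.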
